A study of Mus musculus with 7 samples.

Results

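The 10 genes described here encode cytokine receptor chains found on activated B cells: Il2ra, Il2rb, Il5ra, Csf2rb, Il6ra, Il7r, Il9r, Il10ra, Il13ra1 and Il21r. Libraries are listed throughout in the order of their replicate numbers, 1 to 3 and 1 to 4. The genes were taken by name from the 46959 genes of the deposited table, with earlier results of these data known, and all 10 were in it. RNA came from mouse splenic B cells, purified and cultured for 4 days with lipopolysaccharide (LPS, a bacterial activator of B cells) at 1 µg/mL and the cytokine IL-4 at 20 ng/mL. Cells labelled wild type (n = 3 libraries) were compared with those labelled cKO MED1 (n = 4), a conditional knockout named for the Mediator gene Med1, whose complex links transcription factors at enhancers to RNA polymerase II. The culture and both agents were common to all 7 libraries. The sources used here do not give the Cre driver, the strain and age of the mice, or whether each library came from its own mouse, so each p-value rests on a spread between libraries that may be technical. In bulk RNA, fewer cells that express a gene and less of its RNA per cell cannot be told apart.

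Cytokine receptors of this kind are assembled from a private chain that binds the ligand and a chain shared between several cytokines. Il2ra, Il2rb, Il7r, Il9r and Il21r belong to receptors that use the common gamma chain, encoded by Il2rg. Il5ra encodes the chain that binds IL-5, and Csf2rb the common beta chain through which IL-5, IL-3 and GM-CSF signal. The chain of Il6ra pairs with gp130 (Il6st), that of Il10ra with Il10rb, and that of Il13ra1 with the IL-4 receptor chain Il4ra. The chains have no kinase of their own and signal through JAK kinases, which activate STAT transcription factors. IL-5 promotes growth and antibody secretion of mouse B cells, IL-6 and IL-21 act on the formation of antibody-secreting cells, and IL-7 acts on B cell precursors.

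The libraries held 31937372 to 61149274 recovered reads, and values below are normalised reads, recovered reads scaled with TMM factors to a common library of 48080599 reads. Med1 itself was lower in every cKO MED1 library, at 2172 to 2585 normalised reads against 4173 to 4755 in wild type (log2 fold change -0.89 with an SE of 0.09, limma adjusted p = 0.000174), and the values of the whole gene do not separate a deleted exon from the rest. The 7 defining B cell genes summed to 169952 to 183771 normalised reads in wild type and 120590.0 to 135671 in cKO MED1, where 5 of the 7 fell. The Y-linked gene Ddx3y had 4496 to 4895 normalised reads in the wild-type libraries, 4469.9 in cKO MED1 replicate 3 and at most 4.07 in the other 3 cKO MED1 libraries, so that the sex of the libraries was nearly confounded with genotype. Olfactory and vomeronasal receptor genes, which B cells do not use, stood at 0.0931 to 0.205 normalised reads per kb of exon in wild type and at 0.197 to 0.899 in cKO MED1, highest in replicates 4 and 3. This background made up at most 1.98% of the reads of any of the 10 genes in any library, except Il7r (20.8%).

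Of the 10 receptor genes, 3 were higher in cKO MED1 by limma at an adjusted p of 0.05 (Csf2rb, Il5ra and Il6ra) and 0 were lower, and DESeq2 and edgeR also called 0 lower. Among all 18062 genes tested, 13.4% were higher and 14.6% lower by the same rule. Of the 10 genes, 4 had groups that did not overlap, all with cKO MED1 above wild type (the same 3 and Il13ra1), against 19.3% of all genes with cKO MED1 above and 39.1% of all genes without overlap in either direction. The median log2 fold change of the 10 was 0.33, and that of all genes tested was 0.04. All 10 passed the filter on low reads, and 4 of them had an unadjusted limma p under 0.05, all of them higher, against 43.6% of all genes tested in either direction and 22.6% with cKO MED1 higher.

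**Figure D1:**
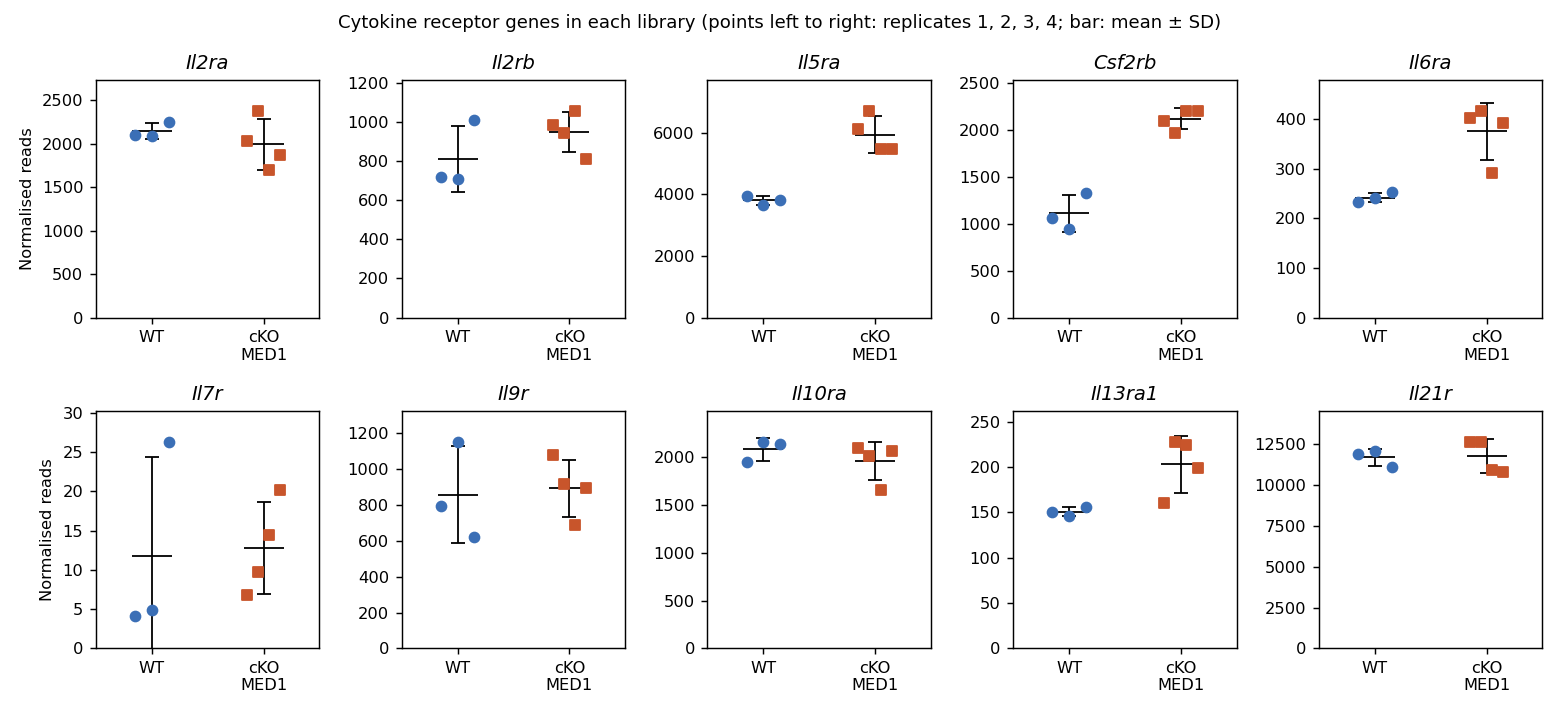
Normalised reads (vertical axes, each from 0) of the 10 receptor genes in the 3 wild-type (WT, circles) and 4 cKO MED1 (squares) libraries, with the mean and SD of each group; where a mean minus SD falls below 0, as for Il7r in wild type, the bar ends at the axis. For Il5ra, Csf2rb, Il6ra and Il13ra1 all cKO MED1 libraries lie above all wild-type libraries, and for the other 6 genes the groups overlap.

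The rise was largest for the common beta chain. Csf2rb was at 1058, 947 and 1332 normalised reads in the 3 wild-type libraries and at 2098, 1967, 2202 and 2205 in the 4 cKO MED1 libraries. The lowest cKO MED1 library stood well above the highest wild-type library, wild-type replicate 3. Csf2rb averaged 1112 ± 198 (SD, n = 3) and 2118 ± 112 (SD, n = 4), a ratio of 1.90 and a difference of 0.94 on the log2 scale (SE 0.11, limma adjusted p = 0.000456). Csf2rb remained called in all 18 alternative analyses, with log2 fold changes from 0.70 to 1.03, and was the only one of the 10 genes still called when the sex of the library was a covariate (1.00, limma adjusted p = 0.0264). That fit compares wild type with cKO MED1 replicate 3 alone.

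Il5ra, the chain that binds IL-5, rose as well. It was at 3954, 3647 and 3808 normalised reads in the 3 wild-type libraries and at 6103, 6711, 5455 and 5459 in the 4 cKO MED1 libraries. The wild-type libraries lay close together and every cKO MED1 library was above them, with replicates 1 and 2 higher than replicates 3 and 4. The mean went from 3803 ± 154 (SD, n = 3) to 5932 ± 602 (SD, n = 4), a ratio of 1.56 (log2 fold change 0.64 with an SE of 0.10, limma adjusted p = 0.00185). The direction held under every scaling, but the call ended when libraries were scaled by total reads (0.39, limma adjusted p = 0.0911) and with sex as a covariate (0.52, limma adjusted p = 0.123). Total reads as the scale shifted the median over all genes tested from 0.04 to -0.21.

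Mice carry a second gene of the beta chain, Csf2rb2, whose product is known to pair with the IL-3 receptor chain. It rose too, from 59.2, 63.6 and 63.1 normalised reads in the 3 wild-type libraries to 182, 146, 138 and 183 in the 4 cKO MED1 libraries (log2 fold change 1.36 with an SE of 0.16, limma adjusted p = 0.000383). The groups were far apart, yet in every library Csf2rb2 held only a small part of the reads of the pair. The longest coding transcripts of Csf2rb (4900 bases) and Csf2rb2 (4740 bases) in GENCODE were identical at 90.8% of 4682 aligned bases, and 18.4% of the 50-base windows and 3.47% of the 150-base windows of the Csf2rb transcript occurred unchanged in Csf2rb2. A read that lies wholly within such a stretch cannot be assigned to either gene by its own bases. Reads were paired and 150 bases long, so the share of 150-base windows is the closer measure of this. The split of reads between the 2 genes is uncertain to that extent, since the sources used here do not say how such reads were counted. Csf2rb took 94.7%, 93.7% and 95.5% of the reads of the pair in the 3 wild-type libraries and 92.0%, 93.1%, 94.1% and 92.3% in the 4 cKO MED1 libraries. The mean share differed by -1.74 percentage points, which a two-sided exact permutation test over 35 assignments did not separate (p = 0.0857, smallest possible p = 0.0286).

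Per kb of exon, a scale on which different genes can be compared, Il5ra stood above Csf2rb in every library. The ratio of Il5ra to Csf2rb per kb was 7.61, 7.84 and 5.82 in the 3 wild-type libraries and 5.92, 6.94, 5.04 and 5.04 in the 4 cKO MED1 libraries. These ranges overlap, and no test of the ratio was made. The exons of Csf2rb in GENCODE sum to 7277 bases, more than the 4900 bases of its longest coding transcript, which lowers its value per kb.

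The other chains that share the beta chain, named here for that role, did not pass the test. Csf2ra, the chain that binds GM-CSF, averaged 521 ± 49.5 (SD, n = 3) and 501 ± 83.0 (SD, n = 4) normalised reads (limma adjusted p = 0.719). Il3ra, which binds IL-3, averaged 386 ± 5.19 and 408 ± 82.9 (limma adjusted p = 0.787). Transcripts of the ligands IL-5, IL-3 and GM-CSF (Il5, Il3 and Csf2) were too low to be tested, at group means of at most 5.74 normalised reads.

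Il6ra, the chain that binds IL-6, was the third gene that rose. It was at 233, 242 and 252 normalised reads in the 3 wild-type libraries and at 402, 417, 291 and 392 in the 4 cKO MED1 libraries. Replicate 3, the cKO MED1 library with Ddx3y reads, lay closest to wild type, and the other cKO MED1 libraries were close to each other. The mean went from 242 ± 9.81 (SD, n = 3) to 376 ± 57.3 (SD, n = 4), a ratio of 1.55 (log2 fold change 0.62 with an SE of 0.14, limma adjusted p = 0.01). The call was lost on leaving out wild-type replicate 1 (0.54, limma adjusted p = 0.0626), with total reads as the scale (0.38, limma adjusted p = 0.105) and with sex as a covariate (0.26, limma adjusted p = 0.301). A predicted gene on the opposite strand, Gm42809, shares 242 exonic bases with Il6ra, and the use of strand in counting is not stated in the sources used here. Its signalling partner Il6st averaged 2576 ± 374 (SD, n = 3) and 2955 ± 304 (SD, n = 4) normalised reads, with overlapping groups (log2 fold change 0.20 with an SE of 0.11, limma adjusted p = 0.191). The ligand gene Il6 averaged 271 ± 61.3 and 272 ± 46.3 normalised reads (limma adjusted p = 0.949).

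Promoter sequences are shown for the genes that rose and had an entry. RefSeq promoter entries (GRCm38.p6) were found for 7 of the 10 genes and for Csf2rb2, and Csf2rb, Il2rb and Il10ra had no entry. The 250 bases before the start are printed 5′ to 3′ on the strand of the gene, with capitals marking matches on either strand to 6 short motifs chosen after the values had been seen. These were the STAT site TTCNNNGAA, the PU.1 core GAGGAA, the octamer ATGCAAAT, the E box CAGGTG, the AP-1 site TGANTCA and TATAAA. The windows are chr6:106749038-106749287 for Il5ra, chr3:89913197-89913446 for Il6ra and chr15:78305722-78305971 for Csf2rb2, all on the minus strand.
Il5ra: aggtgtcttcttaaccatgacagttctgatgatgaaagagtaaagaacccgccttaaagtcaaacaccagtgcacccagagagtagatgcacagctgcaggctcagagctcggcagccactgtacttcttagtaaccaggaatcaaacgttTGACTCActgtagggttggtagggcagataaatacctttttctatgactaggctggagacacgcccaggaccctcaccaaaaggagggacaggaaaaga
Il6ra: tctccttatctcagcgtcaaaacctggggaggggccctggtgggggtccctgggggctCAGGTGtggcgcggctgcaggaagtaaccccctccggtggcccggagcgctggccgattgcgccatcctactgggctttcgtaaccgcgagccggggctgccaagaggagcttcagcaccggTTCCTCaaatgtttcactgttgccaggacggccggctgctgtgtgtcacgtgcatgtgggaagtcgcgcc
Csf2rb2: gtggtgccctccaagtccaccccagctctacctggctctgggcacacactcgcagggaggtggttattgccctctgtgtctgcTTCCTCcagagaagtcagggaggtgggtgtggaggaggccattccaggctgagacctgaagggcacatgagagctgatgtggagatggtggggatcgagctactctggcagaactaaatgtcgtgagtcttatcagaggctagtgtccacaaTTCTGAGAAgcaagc
Il5ra held an AP-1 match that begins 99 bases before the start, a motif found in 6.75% of all 32851 promoter windows of this length. Il6ra held a PU.1 match (70 bases before the start) and an E box match (192 bases before it), found in 23.3% and 17.2% of all windows. Csf2rb2 held a STAT match 15 bases before the start (7.02% of all windows) and a PU.1 match 167 bases before it. No motif was shared by all 3 windows. Receptor genes that were not called held some of the same motifs: Il9r an E box match, Il13ra1 2 E box matches and Il7r a STAT match. The Il7r window, chr15:9529877-9530126 on the minus strand, lies inside the GENCODE gene, which ends at 9530176. It therefore does not precede the start of Il7r in GENCODE. A match describes these letters and does not show that a factor binds there.

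**Figure D2:**
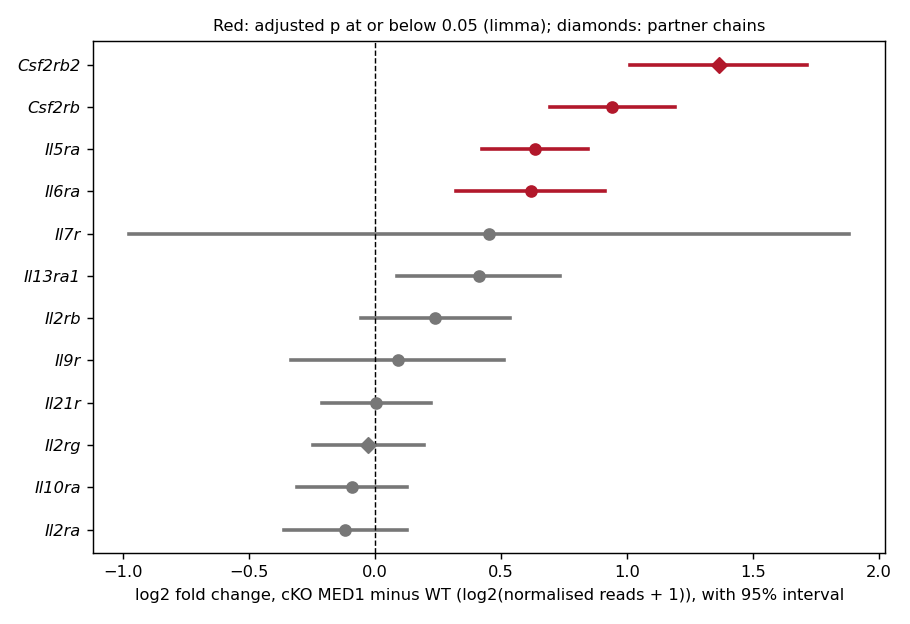
Log2 fold change of cKO MED1 minus wild type (horizontal axis, on the log2(normalised reads + 1) scale) with its limma 95% interval for the 10 receptor genes (circles) and the partner chains Csf2rb2 and Il2rg (diamonds). Csf2rb2, Csf2rb, Il5ra and Il6ra, in red, passed the adjusted p of 0.05; the interval of Il7r is the widest, from -0.98 to 1.88.

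Il13ra1, the chain that joins Il4ra in the receptor for IL-13 and IL-4, narrowly missed the threshold. It was at 150.1, 146 and 156 normalised reads in the 3 wild-type libraries and at 159.9, 228, 224 and 199 in the 4 cKO MED1 libraries. The groups did not overlap, but replicate 1 was close to the highest wild-type library. On average it held 151 ± 5.26 (SD, n = 3) and 203 ± 31.3 (SD, n = 4), with a log2 fold change of 0.41 and an SE of 0.15 (limma adjusted p = 0.0559). The edgeR quasi-likelihood test called it higher (0.43, edgeR adjusted p = 0.0424), as did limma without cKO MED1 replicate 1 (0.51, limma adjusted p = 0.0183). It was not called in the other 16 of the 18 alternatives. Among these were DESeq2 (0.42, DESeq2 adjusted p = 0.0625) and total reads as the scale (0.17, limma adjusted p = 0.484). Il13ra1 is X-linked. With sex as a covariate, a fit that rests on cKO MED1 replicate 3 alone, its log2 fold change was 0.57. The part of sex in the difference of Il13ra1 was not tested. Its partner Il4ra went the other way, from a mean of 41112 ± 3513 normalised reads (SD, n = 3) to 27122 ± 3127 (SD, n = 4; log2 fold change -0.60 with an SE of 0.13, limma adjusted p = 0.00838), a call that ended with sex as a covariate, where the difference was -0.75 and rests on cKO MED1 replicate 3 alone (limma adjusted p = 0.11).

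None of the 5 receptor genes that use the common gamma chain passed the test. Il21r, the receptor chain for IL-21, was the most abundant of the 10, at 11895, 12090.1 and 11136 normalised reads in the 3 wild-type libraries and 12667, 12663, 10935 and 10819.7 in the 4 cKO MED1 libraries. The groups overlapped fully, with a log2 fold change of 0.0046 (limma 95% interval -0.21 to 0.22, adjusted p = 0.975). Il2ra (CD25), which raises the affinity of the IL-2 receptor, was at 2097, 2089 and 2246 in wild type and 2024, 2376, 1695 and 1865 in cKO MED1 (log2 fold change -0.12, interval -0.36 to 0.13, limma adjusted p = 0.434). Its cKO MED1 libraries spread to either side of the wild-type values.

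Il2rb, the beta chain of the receptors for IL-2 and IL-15, was at 721, 711 and 1009 normalised reads in the 3 wild-type libraries and 988, 947, 1059 and 814 in the 4 cKO MED1 libraries. Wild-type replicate 3 reached the cKO MED1 range, and the log2 fold change was 0.24 (limma 95% interval -0.06 to 0.54, adjusted p = 0.194). Il9r, which binds IL-9, varied more within groups than between them, at 796, 1155 and 624 in wild type and 1077, 917, 690.1 and 897 in cKO MED1 (log2 fold change 0.09, interval -0.33 to 0.51, limma adjusted p = 0.742). The shared chain Il2rg itself averaged 2997 ± 142 (SD, n = 3) and 2955 ± 338 (SD, n = 4) normalised reads (log2 fold change -0.03 with an SE of 0.10, limma adjusted p = 0.858). It shares 728 exonic bases with the gene model Gm20489 on the same strand.

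Il7r, which B cell precursors use, had few reads in every library. Its recovered reads before scaling were 6, 6 and 33 in the 3 wild-type libraries and 5, 10, 11 and 11 in the 4 cKO MED1 libraries. Wild-type replicate 3 held most of the wild-type reads, so the limma 95% interval of the log2 fold change, -0.98 to 1.88, leaves a difference in either direction not detectable at this depth (adjusted p = 0.615). The 5 B cell precursor markers also had few reads, summing to 8.26 to 24.5 normalised reads in wild type and 25.7 to 86.0 in cKO MED1, without overlap. Of these, Rag1, a recombinase gene of precursors, had up to 44.7% background among its reads in a library. Rag1 rose from a mean of 2.61 to 18.2 normalised reads (limma adjusted p = 0.0237). Its log2 fold change was 2.26, and the call was lost on leaving out wild-type replicate 1 (1.92, limma adjusted p = 0.104) or cKO MED1 replicates 3 and 4 (1.71, adjusted p = 0.104) and with sex as a covariate (2.27, adjusted p = 0.226).

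Il10ra, the chain that binds IL-10, was at 1944, 2160.0 and 2137 normalised reads in the 3 wild-type libraries and 2095, 2009.9, 1657 and 2066 in the 4 cKO MED1 libraries. The groups overlapped, with replicate 3 the lowest, and the log2 fold change was -0.09 (limma 95% interval -0.31 to 0.13, adjusted p = 0.496). Its partner Il10rb averaged 688 ± 60.4 (SD, n = 3) and 691 ± 10.1 (SD, n = 4) normalised reads (limma adjusted p = 0.94). The ligand gene Il10 was the only one of 4 tested ligand genes that passed, rising by 2.89 on the log2 scale (SE 0.34, limma adjusted p = 0.000379). Among all genes tested, 28.0% passed.

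The order of the 10 genes by level per kb of exon was much the same in the 2 genotypes. In wild type Il21r led with 3522 ± 152 (SD, n = 3) normalised reads per kb, at the 92.8th percentile of all tested genes, followed by Il5ra (1064), Il10ra (595), Il2ra (375), Il2rb (189.8), Il9r (173), Csf2rb (153), Il13ra1 (40.6), Il6ra (28.0) and Il7r (2.53). The wild-type libraries of Il2rb and Il9r overlapped, as did those of Il9r and Csf2rb, and all other neighbours in this order were separate. In cKO MED1, Csf2rb moved from the 7th to the 5th place, at 291 ± 15.4 (SD, n = 4) normalised reads per kb against 222 ± 24.0 for Il2rb and 181 ± 32.1 for Il9r, and the other 7 genes held their places. The place of Csf2rb in wild type depends on the length used. Its 7277 exonic bases exceed the 4900 of its longest coding transcript, and a shorter length would raise its value per kb.

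**Figure D3:**
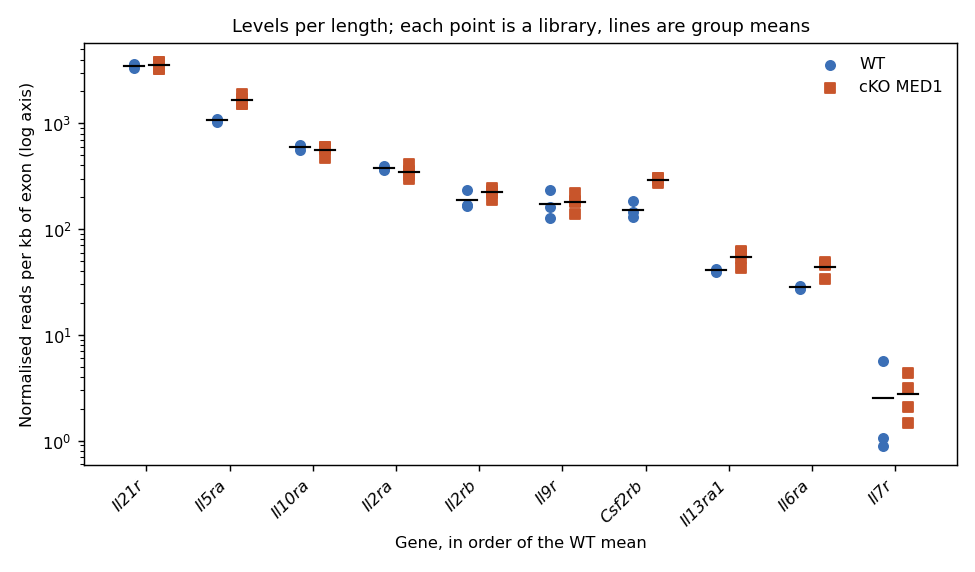
Normalised reads per kb of exon (vertical log axis) of the 10 receptor genes in order of the wild-type mean, with 1 point per library and a line at each group mean. Levels run from 3522 for Il21r to 2.53 for Il7r in wild type, and the cKO MED1 points of Il5ra, Csf2rb, Il13ra1 and Il6ra lie above the wild-type points.

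In the genome (GRCm38), Csf2rb (ENSMUSG00000071713.6) lies on chromosome 15 from 78325752 to 78353847 on the plus strand, with Csf2rb2 on its upstream side (78282507 to 78305721, minus strand) and Il2rb further along (78479256 to 78495271, minus strand). Il7r is on the same chromosome but far away, from 9505788 to 9530176. Of the 11 annotated genes in the 213 kb from Csf2rb2 to Il2rb, 7 were tested, and the 2 that rose were Csf2rb2 and Csf2rb. The genes in between, named here for their position after their values had been seen, were not called: Tst (log2 fold change -0.30, limma adjusted p = 0.41), Mpst (-0.11, adjusted p = 0.497), Kctd17 (-0.14, adjusted p = 0.412) and Tmprss6 (0.81, adjusted p = 0.195), the last at group means of 10.8 and 20.2 normalised reads. Il5ra (ENSMUSG00000005364.11) lies on chromosome 6 from 106710357 to 106749037, and Il6ra (ENSMUSG00000027947.11) on chromosome 3 from 89864059 to 89913196, both on the minus strand.

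**Figure D4:**
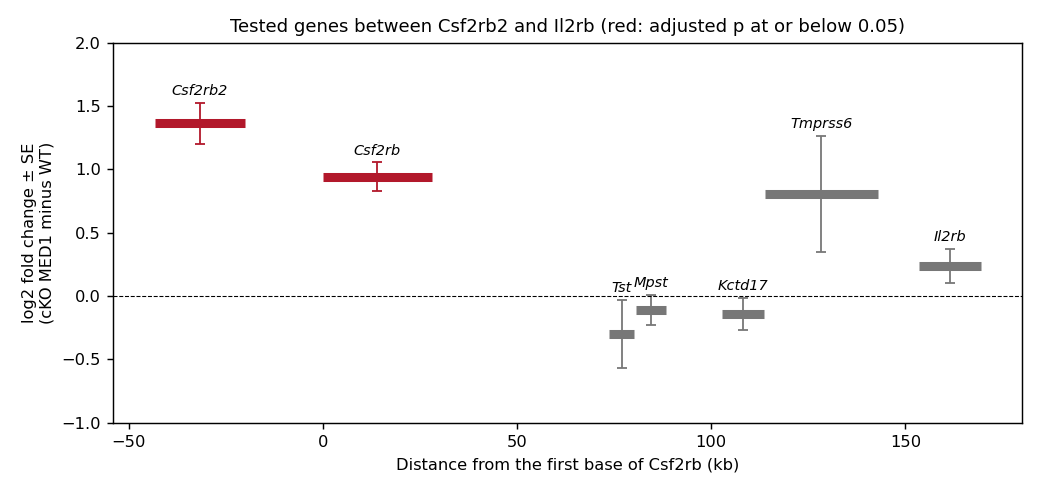
Log2 fold change (vertical axis, cKO MED1 minus wild type, with SE) of the 7 tested genes from Csf2rb2 to Il2rb against the distance from the first base of Csf2rb in kb; thick bars span each gene. The beta chain genes, in red, are at 1.36 and 0.94, and Il2rb at the other end is at 0.24.

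The signalling genes downstream of these receptors moved in both directions. Of 11 JAK kinase and STAT genes, all tested, 2 rose and 2 fell, with a median log2 fold change of -0.02 beside 0.04 for all genes and 28.0% of all genes called. Those that rose were Jak3, the kinase bound to the common gamma chain (log2 fold change 0.45, limma adjusted p = 0.0258, groups overlapping), and Tyk2 (0.25, adjusted p = 0.0453). Stat4 (-0.47, adjusted p = 0.00813) was among those that fell. The calls of Tyk2 and Jak3 ended in 12 and 9 of the 18 alternatives, and that of Stat4 in 1. Stat5a and Stat5b, the STAT genes through which IL-2 and IL-5 act and named for that role, averaged 3690 ± 163 and 3734 ± 110 (SD, n = 3) normalised reads in wild type and 4464 ± 611 and 4237 ± 511 (SD, n = 4) in cKO MED1 (limma adjusted p = 0.0904 and 0.208), with overlapping groups. Without cKO MED1 replicate 3, Stat5a was called higher (0.38, limma adjusted p = 0.0196).

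Of 16 genes of feedback inhibitors, which shut off JAK and STAT signalling, 1 rose and 3 fell (median 0.0083). Across all genes tested, 28.0% were called. Socs3, which is induced by STAT3 and limits IL-6 signalling, rose from a mean of 1276 ± 543 normalised reads (SD, n = 3) to 3191 ± 374 (SD, n = 4) (log2 fold change 1.41 with an SE of 0.23, limma adjusted p = 0.00261). Socs1 (-0.61, adjusted p = 0.00394), Ptpn6 (-0.36, adjusted p = 0.0257) and Ptpn2 (-0.29, adjusted p = 0.0301) fell. With sex as a covariate, which leaves cKO MED1 replicate 3 alone against wild type, 0 of these 4 passed, at log2 fold changes of 1.26 for Socs3 (limma adjusted p = 0.128), -0.63 for Socs1, -0.44 for Ptpn6 and -0.34 for Ptpn2. The calls of Ptpn2 and Ptpn6 ended in 7 and 6 of the 18 alternatives, and those of Socs1 and Socs3 only with that covariate. Cish, a STAT5 target that restrains IL-2 signalling and is named for that role, averaged 2704 ± 400 and 3056 ± 489 normalised reads (adjusted p = 0.34).

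Of 15 genes known as STAT targets in lymphocytes, 2 rose and 3 fell (median 0.02), beside 28.0% of all genes called. Prdm1, which drives plasma cell formation (log2 fold change 0.71, limma adjusted p = 0.00785), and the kinase gene Pim2 (0.50, adjusted p = 0.0202) rose. Myc (-0.71, adjusted p = 0.00591), the survival gene Bcl2 (-0.49, adjusted p = 0.0177) and Bcl6 (-0.65, adjusted p = 0.0409), named because it completes the count, fell. The calls of Pim2 and Bcl6 ended in 7 and 6 of the 18 alternatives, those of Prdm1 and Bcl2 in 2 each and that of Myc in 1. Without wild-type replicate 1, cKO MED1 replicate 4 or wild-type replicate 2, the calls over all 6 pathway lists went from 23 to 9, 14 and 15.

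Of 10 partner chain genes, 9 were tested, and 1 rose (Csf2rb2) and 1 fell (Il4ra), with a median of 0.01. By the same rule, 28.0% of all genes were called. Crlf2, which pairs with the chain of Il7r in the receptor for TSLP, averaged 1139.8 ± 53.4 (SD, n = 3) and 974 ± 151 (SD, n = 4) normalised reads (limma adjusted p = 0.148). Of 13 ligand genes, 9 were too low to be tested. Besides Il10 and Il6, the tested ones were Il2 (59.3 ± 2.67 and 59.4 ± 15.1 normalised reads, adjusted p = 0.934) and Il15 (53.1 ± 14.5 and 72.4 ± 21.0, adjusted p = 0.247).

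Other cytokine receptor genes outside the 10 gave 4 rises and 3 falls among 22 tested of 30, beside 28.0% of all genes called. The median log2 fold change of the 22 was 0.53. Most of the 22 had few reads, so this median mainly describes such genes. Those with the most reads went in both directions, from -0.69 (Lifr) to 0.61 (Il1r2). The decoy receptor gene Il1r2 rose from a mean of 1067 ± 115 normalised reads (SD, n = 3) to 1642 ± 291 (SD, n = 4) (log2 fold change 0.61, limma adjusted p = 0.00938). The other rises were of genes with few reads. Cntfr went from a mean of 2.56 to 20.5 normalised reads (limma adjusted p = 0.0202). Named to complete the count, Il18r1 went from 6.40 to 23.2 (limma adjusted p = 0.0445) and Il1rl1 from 8.29 to 32.1 (limma adjusted p = 0.0456). Background made up to 69.9% of the reads of Cntfr in a library, 65.2% for Il18r1 and 46.6% for Il1rl1. The calls of Il1r2, Cntfr, Il18r1 and Il1rl1 ended in 3, 4, 8 and 8 of the 18 alternatives. Lifr (-0.69, adjusted p = 0.0149), Il27ra (-0.48, adjusted p = 0.0185) and Il1rap (-0.37, adjusted p = 0.0342), the last also named to complete the count, fell, and these calls ended in 2, 3 and 8 of the 18 alternatives.

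**Figure D5:**
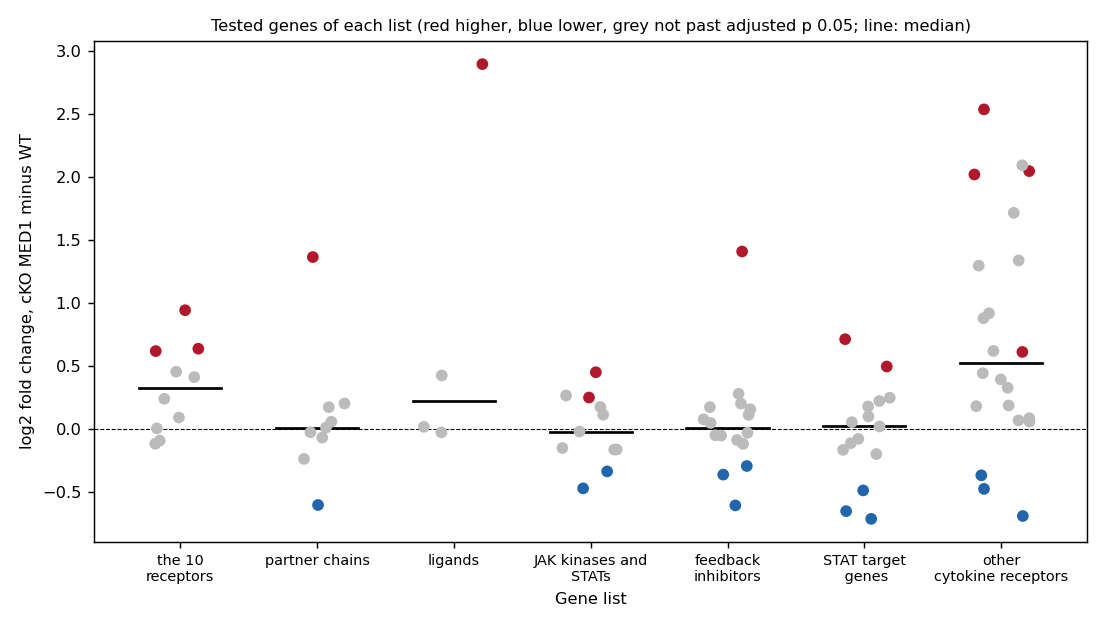
Log2 fold change (vertical axis, cKO MED1 minus wild type) of the tested genes of the 10 receptors and of 6 pathway lists, with the list median as a line; horizontal scatter within a list has no meaning. The receptor genes hold 3 red points and 0 blue ones, and the ligands 1 red point and 0 blue ones. Each of the remaining lists holds both colours. Among all genes tested, 13.4% were higher and 14.6% lower.

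The genes whose values over the 7 libraries followed Csf2rb most closely, among 8479 protein-coding genes with a mean of at least 5 CPM, were Ggta1 (Pearson r = 0.995), Rhobtb1 (0.993) and Mast4 (0.989). These values are descriptions over 7 libraries that share the difference between genotypes. Their log2 fold changes were 0.51 for Ggta1, 1.00 for Rhobtb1 and 0.55 for Mast4, and wild-type replicate 3 was the highest wild-type library for all 3, as for Csf2rb.

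Other cells that carry these receptors were looked for by their marker genes, and none of the marker genes was at 0 in all 7 libraries. The sum over 5 macrophage and monocyte markers, cells that express Csf2rb and Il6ra, was 398 to 603 normalised reads in wild type and 482 to 617 in cKO MED1. Cd68 held most of it (333 and 423 on average). Adgre1 (114 and 90.8) and Lyz2 (43.0 and 38.1) had lower means in cKO MED1. Fcgr1 (1.84 and 9.66) and Cd14 (1.05 and 5.04) were higher there without overlap, but too low to be tested. Background made up to 35.0% and 23.4% of their reads in a library. For 4 eosinophil markers, cells that carry Il5ra, the sums were 141 to 176 and 114 to 199. Prg2 held most of these (150 and 142 on average). Of the others, Epx (2.42 and 7.58, without overlap, too low to be tested) and Siglecf (6.49 and 13.0, not called) had higher means in cKO MED1. Ccr3 (5.10 and 4.23) had a lower mean and was not tested. Sums over 4 B-1 cell markers, B cells known for high Il5ra, were 5718 to 6632 in wild type and 4695 to 5828 in cKO MED1, where 0 of 4 rose and 1 fell. Neutrophil markers (5 genes) summed to 2.75 to 10.6 and 19.0 to 69.5, and 1 of them, Mpo, rose from a mean of 5.01 to 23.6 (limma adjusted p = 0.0274), a call that ended in 6 of the 18 alternatives. The sums were 116 to 164 and 65.0 to 191 for 5 NK cell markers, cells that carry Il2rb, with 0 called. Prf1 held most of these (112 and 89.1 on average), and the means of the others, such as Eomes (9.79 and 18.8), were higher in cKO MED1. Mast cell and basophil markers (5 genes) summed to 11.0 to 30.2 and 14.9 to 82.4. T cell markers (7 genes) went from 49.6 to 74.3 in wild type to 119 to 253 in cKO MED1, with the highest values for Lat, which rose from 31.8 to 104 (limma adjusted p = 0.000471). The 5 dendritic cell markers summed to 2371 to 3319 and 3487 to 4608. Flt3 held 2163 and 3360.0 of these on average and rose (limma adjusted p = 0.0104), a call that ended in 3 of the 18 alternatives. Clec9a rose as well, from 3.20 to 23.1 (limma adjusted p = 0.0264). It was tested in only 14 alternatives, and its call ended in 2 of them. Background made up to 44.6% of the reads of Clec9a in a library. The 5 stromal and endothelial markers summed to 1398 to 1639 and 1029 to 1175, where 0 were called higher and 1 lower (Pecam1). Pecam1 held 1429 and 980 of these on average. The others had higher means in cKO MED1 with overlapping groups, and were not called. These were Col1a1 (8.97 and 29.1), Col1a2 (5.07 and 25.4), Pdgfrb (22.2 and 39.0) and Cdh5 (32.7 and 50.2). Rag1 and all single marker genes given in this paragraph were named after their values had been seen. The part of these cells in the rise of Csf2rb, Il5ra and Il6ra was not tested.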

How the data were processed

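The members and all gene lists were chosen with earlier results of these data known. The build was mouse GRCm38 (mm10) and the tools named were R 3.4, DESeq2, Subread 1.5.0-p3, featureCounts and STAR 2.4.0a, per the submitters' processing notes. The step each tool made and the use of strand in counting are not given there. The labels' protocols give ribosomal RNA depletion, a stranded total RNA kit, 14 cycles of amplification and paired 150-base reads. The authors deposited a signal, reads per gene divided by 1 size factor per library: within a tolerance of 1e-06, 100% of the values in each library were a whole number of times its smallest value. Whole reads were therefore recovered. The phiX174 spike-in, at most 0.000383% of reads, was left out.

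Genes were kept by edgeR's filterByExpr (18062), scaled with TMM factors (edgeR 4.0.16) and tested with limma 3.58.1 (R 4.3.3, intensity trend) on log2(normalised reads + 1), adjusted by Benjamini-Hochberg over all 18062 genes. This scale understates changes of genes with few reads. It called 5065 genes, and edgeR's quasi-likelihood test on the recovered reads called 5340. The script was tested on simulated data. Positions and exon lengths came from GENCODE M21. Named genes were the 10 receptors, Med1, Csf2rb2 and Il2rg, up to 4 genes per pathway list with the smallest adjusted p, and 3 genes most like the member with the smallest p. Csf2ra, Il3ra, Il10rb, Stat5a, Stat5b and Cish are named outside this rule for their roles, after their values had been seen. A gene that this rule takes is not reported here. Alternatives were RLE factors, total reads, the authors' size factors, no filter, a pseudocount of 5, edgeR and DESeq2 1.42.0 on recovered reads, the replicate number as a block, sex of the library (from Ddx3y) as a covariate, subtraction of the background per kb given by 1415 olfactory and vomeronasal receptor genes, and leaving out libraries.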

Additional observations from a re-analysis of the deposited data

How the results depend on the processing

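Across 18 alternatives, Med1 and Csf2rb kept their direction and their call, Il5ra lost its call in 2 and Il6ra in 3, and 0 of the 10 receptor genes were called lower in any of them. The number of receptors called higher was 1 (Csf2rb) with total reads and 1 with sex as a covariate, and ranged from 2 to 4 with 1 library left out. The sex covariate left 228 calls across the table and 4 in the pathway lists (Bcl2, Bcl6, Csf2rb2 and Il10), against 5065 and 23; without cKO MED1 replicates 3 and 4, where silent-gene reads were highest, they were 2145 and 11 and the same 3 receptors were called. With 1 library left out the totals ranged from 1556 (without wild-type replicate 1) to 6125 and from 9 to 25. Among all calls, 47.8% were higher in the reported fit, 37.3% with the authors' size factors, 31.8% with total reads and 39.5% with no filter. The cause of these changes was not tested.

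Whether replicate numbers pair the libraries could not be decided. Deviations from the group means of equally numbered libraries correlated at 0.51, -0.23 and 0.16, and those of unequal numbers at -0.58 to 0.40. Deviations within a group are tied to each other, since they are taken from its own mean. In the block fit, cKO MED1 replicate 4 has no wild-type library of its number and adds nothing to the difference. With the replicate block, 3741 genes were called, and the same 3 receptors (Csf2rb 0.92, Il5ra 0.67 and Il6ra 0.59).

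Genes that did not pass the reported test changed sign as follows. Il21r was at -0.011 with RLE factors, -0.24 with total reads, -0.13 with the authors' size factors, -0.15 with no filter, -0.0069 by DESeq2, -0.098 with sex as a covariate and from -0.084 to 0.066 with 1 library left out. Il9r was at -0.15 with total reads, -0.042 with the authors' size factors, -0.066 with no filter, -0.27 with sex as a covariate and from -0.17 to 0.27 with 1 left out. Il6 was at -0.23 with total reads, -0.12 with the authors' size factors, -0.14 with no filter, -0.0066 by DESeq2, -0.052 without cKO MED1 replicates 3 and 4 and from -0.23 to 0.10 with 1 left out. Without cKO MED1 replicates 3 and 4, Il2ra was at 0.040, Il7r at -0.029, Il2rg at 0.12 and Mpst at 0.045. With total reads Il2rb was at -0.0033 and Il6st at -0.041, and Il2rg was at 0.027 with the replicate block. Il10rb was at -0.0053 with RLE factors, -0.23 with total reads, -0.12 with the authors' size factors, -0.15 with no filter and -0.0083 by DESeq2. Il3ra was at -0.19 with total reads, -0.075 with the authors' size factors, -0.099 with no filter and -0.21 with sex as a covariate. Cish, Stat5a and Stat5b were at -0.088, -0.0041 and -0.052 with sex as a covariate, Cish and Stat5b at -0.070 and -0.069 with total reads, and Csf2ra at 0.11 without cKO MED1 replicates 3 and 4. With 1 library left out, Csf2ra ranged from -0.19 to 0.054, Il10rb from -0.11 to 0.046, Il3ra from -0.051 to 0.17, Il7r from -0.030 to 1.17, Il10ra from -0.19 to 0.0078, Il2 from -0.16 to 0.12 and Il2rg from -0.12 to 0.050.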
